A study of Homo sapiens with 18 samples.

Results

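miR-210 was described in HCT116 cells, a human colorectal carcinoma line, by both arms of its hairpin, by the RNA that hosts the hairpin and by 7 mRNAs known as its reported targets. These 10 features were chosen by name: miR-210-3p and miR-210-5p are 2 of the 2167 mature miRNAs listed, and MIR210HG, ISCU, EFNA3, COX10, GPD1L, SDHD, RAD52 and PTPN1 are 8 of the 38055 genes listed. The cells were wild type in every group and were harvested on day 3 at 50% confluency, on day 5 at 250% and on day 7 at 400%, so that cell density and days in culture cannot be told apart. Small RNA was sequenced from 3 libraries on each of the 3 days, and the whole transcriptome from 3 libraries on day 3 and 3 on day 5, each labelled as a biological replicate of this 1 cell line. Whole transcriptome values of day 7 were not analysed here.

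miR-210 is transcribed from the short arm of chromosome 11 within MIR210HG, a long noncoding RNA whose name stands for miR-210 host gene. Its locus is a known target of the hypoxia inducible factors HIF, transcription factors that are stabilised when oxygen is scarce, and the mature miRNA is loaded into an Argonaute protein and pairs with mRNAs through its seed. The best known targets act in mitochondria, in iron-sulfur cluster assembly and the respiratory chain, and others act in DNA repair and in signalling at the cell surface.

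The mature sequences are shown because the seed, bases 2 to 8 and in capitals here, sets which mRNAs each arm can pair with. They were taken from RefSeq, on GRCh38.p14.
miR-210-3p: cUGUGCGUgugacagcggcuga
miR-210-5p: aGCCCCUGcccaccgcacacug
Each seed is held by 1 of the 2370 mature human miRNAs in the reference, so neither arm shares its seed with another miRNA of that reference. The 3p arm lies at chr11:568112-568133 and the 5p arm at chr11:568150-568171, both on the minus strand. The hairpin of 110 bases (chr11:568089-568198) is intronic in all 9 annotated MIR210HG transcripts and begins 259 bases after the start of the host gene.

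The DNA letters that pair with bases 2 to 8 of miR-210-3p are ACGCACA, and the 3′UTRs of 4 of the 7 reported targets held them in the canonical GENCODE 44 transcript. The matches are printed with their flanks in the 5′ to 3′ direction, with the paired letters in capitals. SDHD is added because its 3′UTR held the shorter match to bases 2 to 7.
ISCU, chr12:108569017-108569043: gctatgagatACGCACAatacttgctg
EFNA3, chr1:155087331-155087357: gacctatgcaACGCACAgacacttttg
COX10, chr17:14207552-14207578: accacaccacACGCACActccacatgc
GPD1L, chr3:32167532-32167558: ctttgctgaaACGCACAttacctggaa
SDHD, chr11:112095691-112095716: ttgttattttCGCACAatgggaatct
All 5 lie on the plus strand of GRCh38. The match in ISCU begins at base 111 of a 3′UTR of 452 bases and, like that in SDHD, is followed by an A. RAD52 and PTPN1 held neither match in the 3′UTR. Over all tested genes with an annotated 3′UTR, 3.21% held the 7-base match there and 9.2% a match of 6 bases or more. RAD52 held 2 matches of 7 bases in its coding sequence, 1 of them at chr12:914493-914519 on the minus strand, and PTPN1 held 1 match of 6 bases there. A match is a description of letters and not a site shown to be bound.

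Both arms rose with each increase in cell density on the deposited scale. miR-210-3p went up 3.34-fold from day 3 to day 5 and 7.73-fold from day 3 to day 7, and miR-210-5p went up 5.97-fold and 8.21-fold. By day 5 the 5p arm had risen by 2.58 of the 3.04 log2 units it gained by day 7, and the 3p arm by 1.74 of 2.95.

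The log2 values of miR-210-3p were 10.05, 10.08 and 9.34 in the 3 libraries of day 3, 11.48, 11.71 and 11.51 on day 5, and 12.73, 12.84 and 12.76 on day 7. The days did not overlap, and the third library of day 3 stood below the others of its day. Expressed in CPM of all mature miRNA in the same library (a share of the summed back-transformed values, free of any single factor per library but not a share of reads), the arm was at 570, 555 and 421 on day 3, at 1670, 1774 and 1648 on day 5, and at 2767, 2820 and 2774 on day 7. It moved from rank 115 to 137 among the 2167 miRNAs on day 3 to rank 47 to 50 on day 7. In bulk RNA, a change in the amount per cell and a change in the share of cells that carry the RNA cannot be told apart.

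The log2 values of miR-210-5p were 6.70, 6.69 and 6.64 on day 3, 9.11, 9.34 and 9.32 on day 5, and 9.71, 9.70 and 9.74 on day 7. The days again did not overlap on this scale, and the spread within a day was at most 0.13 (SD, n = 3). In CPM, the arm was at 55.8, 53.1 and 64.7 on day 3, at 323, 344 and 360 on day 5, and at 341, 319 and 343 on day 7. On this scale days 5 and 7 overlapped. The 5p arm ranked 261 to 272 on day 3 and 137 to 140 on day 7.

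**Figure D1:**
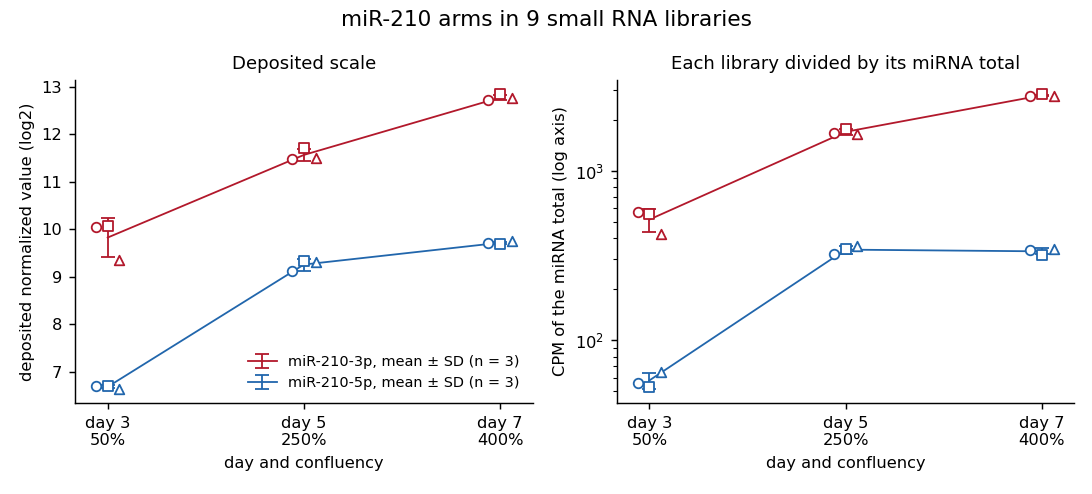
Levels of miR-210-3p (red) and miR-210-5p (blue) on days 3, 5 and 7, as deposited log2 values on the left and as CPM of each library's miRNA total on a log axis on the right. Circles, squares and triangles are replicates 1, 2 and 3, and lines join means ± SD (n = 3). The 3p arm rises at both steps in both panels, and the 5p arm rises at both steps on the left but overlaps between days 5 and 7 on the right.

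In limma fits over all miRNAs with Benjamini-Hochberg adjustment, 2 of the 2 arms passed an adjusted p of 0.05 on day 5 against day 3, where 8.53% of the 539 miRNAs tested were higher. The log2 fold change was 1.74 (SE 0.20, limma adjusted p = 0.000711) for the 3p arm and 2.58 (SE 0.11, limma adjusted p = 1.29e-06) for the 5p arm. These were ranks 2 and 1 of all 539, and the next miRNA, miR-30b-3p, had a log2 fold change of 1.00. Without replicate 3 of day 3 the change of the 3p arm was 1.50 and still passed.

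On day 7 against day 3, 2 of 2 arms passed, where 45.3% of the 559 miRNAs tested were higher. The log2 fold change was 2.95 (SE 0.19, 95% interval 2.51 to 3.40, limma adjusted p = 2.16e-05) for miR-210-3p. It was 3.04 (SE 0.09, 95% interval 2.82 to 3.25, limma adjusted p = 3.44e-07) for miR-210-5p. The arms again held ranks 2 and 1 of all 559, and the next miRNA, miR-3617-5p, had a log2 fold change of 2.83. Among the 455 miRNAs averaging at least 10 CPM, the next was miR-935 at 1.67. On the CPM scale the log2 fold changes were 2.45 and 2.53, and both passed.

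On day 7 against day 5, 2 of 2 arms passed, where 39.3% of the 567 miRNAs tested were higher. The log2 fold change was 1.21 (SE 0.18, limma adjusted p = 0.000983) for the 3p arm, which ranked 4 of all 567. Among the 455 more abundant miRNAs this arm was first, closely followed by miR-30d-5p at 1.18. For the 5p arm the log2 fold change was 0.46 (SE 0.09, limma adjusted p = 0.00272), which ranked 158 of 567 and 131 of 455. The result for the 5p arm depended on the scale. The deposited values summed to between 2452607 and 2600754 on day 7 and between 1712225 and 1884026 on day 5. With each library divided by this sum, the 3p arm still rose by 0.72 (limma adjusted p = 0.0016), and the 5p arm was at -0.03 (95% interval -0.23 to 0.16, limma adjusted p = 0.754).

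The change between days 5 and 7 was set against the change between days 3 and 5 within 1 limma fit over the 9 libraries. These steps are unequal in confluency, from 250% to 400% and from 50% to 250%. The later change was smaller than the earlier for 1 of the 2 arms, where 3.35% of the 567 miRNAs passed in that direction. The difference on the log2 scale was -2.12 (SE 0.15, limma adjusted p = 5.85e-05) for miR-210-5p. It was -0.53 (95% interval -1.23 to 0.16, limma adjusted p = 0.247) for miR-210-3p, which did not pass. With library totals it was -1.02 for the 3p arm and passed (limma adjusted p = 0.00691).

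The ratio of both arms is taken inside a library and is free of the scale between libraries. The log2 ratio of 3p to 5p was 3.35, 3.38 and 2.70 on day 3, 2.37, 2.37 and 2.20 on day 5, and 3.02, 3.14 and 3.01 on day 7. All 3 libraries of day 5 lay below all those of days 3 and 7, while days 3 and 7 overlapped. The 5p arm made up 16.2 to 17.9% of both arms on day 5, 8.74 to 13.3% on day 3 and 10.2 to 11.0% on day 7.

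The mean log2 ratio changed by -0.84 from day 3 to day 5 and by 0.75 from day 5 to day 7. Each gave p = 0.1 in a two-sided exact permutation test, the smallest that 3 against 3 libraries allow, and an adjusted p of 0.15 (Benjamini-Hochberg) over the 3 pairs of days compared. Day 7 minus day 3 was -0.09 (exact permutation p = 0.8). Among 110 hairpins with both arms at 10 CPM or more, the change from day 3 to day 5 was the lowest for miR-210, and the middle 90% of the hairpins lay between -0.51 and 0.48. The methods give TMM normalization for these data but not the log transform, so these differences, and the folds and CPM above, need not equal ratios of reads.

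**Figure D2:**
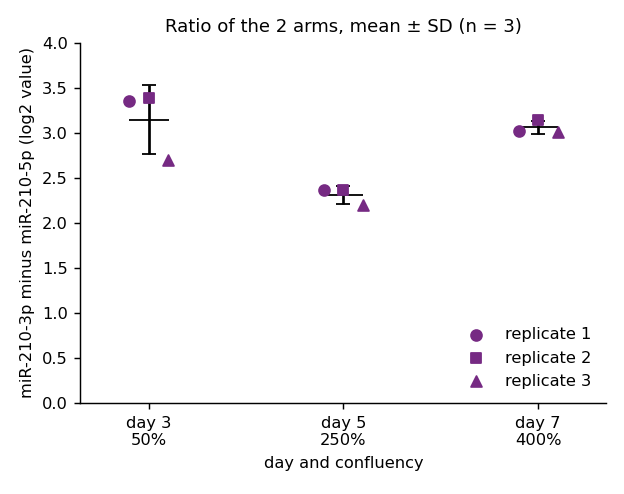
Log2 value of miR-210-3p minus that of miR-210-5p in each small RNA library by day and confluency, with the mean ± SD (n = 3). The day 5 libraries, at 2.20 to 2.37, lie below those of day 3, at 2.70 to 3.38, and of day 7, at 3.01 to 3.14.

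Likeness to other miRNAs was measured as the root mean square difference over the 9 libraries, each miRNA taken relative to its own day 3 mean. The nearest of 454 others to each arm was the opposite arm, at 0.52 log2 units. miR-935 came next, at 0.97 from the 3p arm and 1.37 from the 5p arm, followed by miR-3605-3p at 1.06 and 1.41.

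MIR210HG, the host RNA (ENSG00000247095, chr11:565657-568457, minus strand), was higher on day 5 in every library. Its normalized values were 73.8, 36.5 and 41.1 on day 3 and 462, 548 and 447 on day 5, resting on 29 to 84 and 426 to 511 recovered reads. The days were far apart, with no overlap between the libraries. The log2 fold change was 3.31 (SE 0.27, 95% interval 2.64 to 3.97, limma adjusted p = 0.00031), or 9.88-fold, and ranked 32 among the 20129 genes tested. Per length, it went from 0.612 ± 0.278 to 6.09 ± 0.736 RPKM, computed from the recovered reads (SD, n = 3).

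The promoter windows ran from 250 bases before to 50 after each RefSeq start on GRCh38.p14, and were searched on both strands for ACGTG and GCGTG, the letters of the core hypoxia response element, found at no overlapping position in these windows. ACGTG occurred in the windows of MIR210HG, 170 bases before the start, and of GPD1L, 175 bases before it. These windows are printed because the locus of miR-210 is a known HIF target, with the motif in capitals and read along the gene.
MIR210HG, chr11:568611-568639, minus strand: ctccccgggcagACGTGcagaaaagaacg
GPD1L, chr3:32106433-32106461, plus strand: ctacatgtcccgACGTGcctcgggcaggg
ACGTG was present in 21.4% of 35116 promoters of this length, GCGTG in 36.5% and either in 48.4%. The SDHD window held neither, and the other windows held GCGTG only, apart from an upstream RAD52 start with neither.

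The genes around MIR210HG on chromosome 11 were mostly higher on day 5 too. Of the 10 nearest tested genes, 5 on each side, 9 rose and 0 fell, where 29.3% of all genes rose and 27.6% fell. The median log2 fold change was 1.20. IRF7, an interferon regulatory factor, rose by 1.72 (limma adjusted p = 0.000376) and DRD4, a dopamine receptor, by 1.48 (limma adjusted p = 0.000444). HRAS, the GTPase, was at 0.05 (limma adjusted p = 0.649). With a correction for GC content and transcript length in each library, 7 of the 10 were higher and 1 lower, with a median of 0.48. Among all 19288 genes it covered, 4649 were higher and 4991 lower. On this scale IRF7 was at 1.16 (limma adjusted p = 0.00138) and DRD4 at 0.90 (limma adjusted p = 0.00337). HRAS was the 1 that was lower, at -0.27 (limma adjusted p = 0.0119). MIR210HG itself rose by 2.87 (limma adjusted p = 0.00114) with the correction.

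The genes nearest in pattern to MIR210HG over the 6 libraries, of 20128, were ENSG00000254362 at 0.23 log2 units, HLA-K at 0.30 and IGFBP3 at 0.30. On day 3 ENSG00000254362 and HLA-K averaged only 2.19 and 2.55 as log2(value + 1), near the floor, and IGFBP3 averaged 4.63. IGFBP3 encodes a binding protein of insulin-like growth factors.

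Among MIR210HG and the 7 target mRNAs, 6 of 8 passed the limma test on day 5 against day 3, where 56.9% of the 20129 genes tested passed. MIR210HG, EFNA3 and PTPN1 were higher, where 29.3% of genes rose, and ISCU, SDHD and GPD1L were lower, where 27.6% fell. The share of members that passed is near the share of all genes that passed, so the count is not a result about the members. The 4 targets with a 7-base match in the 3′UTR went in different directions.

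ISCU, the scaffold protein of iron-sulfur cluster assembly (ENSG00000136003), was lower on day 5. Its normalized values were 2922, 2842 and 3518 on day 3 and 1441, 1362 and 1517 on day 5, with no overlap. It changed by -1.10 on the log2 scale (SE 0.11, 95% interval -1.37 to -0.83, limma adjusted p = 0.00052), or 2.14-fold lower. After correction for GC content and length it was -0.70 (limma adjusted p = 0.00212).

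SDHD, a membrane anchor subunit of succinate dehydrogenase (ENSG00000204370), was also lower. Its values were 3357, 3292 and 2903 on day 3 and 1432, 1406 and 1569 on day 5, again without overlap. On the log2 scale it changed by -1.11 (SE 0.09, 95% interval -1.35 to -0.88, limma adjusted p = 0.000336), and -0.53 (limma adjusted p = 0.00393) after the same correction. ENSG00000255292 overlaps SDHD on the same strand. SDHD has 6 annotated processed pseudogenes, of which the 3 that were tested averaged 14.0 to 36.5 over the libraries, and reads that fit both could have been split between them and SDHD.

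COX10, which makes a precursor of the haem A of cytochrome c oxidase (ENSG00000006695), did not pass. Its values were 828, 888 and 1029 on day 3 and 867, 790 and 843 on day 5, and the days overlapped. Its log2 fold change was -0.13 (95% interval -0.39 to 0.13, limma adjusted p = 0.331). With the GC and length correction it was -0.29 and passed (limma adjusted p = 0.0287).

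GPD1L, an enzyme related to glycerol 3-phosphate dehydrogenase (ENSG00000152642), had values of 1103, 1290 and 1256 on day 3 and 989, 930 and 1030 on day 5. The days did not overlap, but the gap was small. The log2 fold change was -0.30 (SE 0.09, 95% interval -0.54 to -0.07, limma adjusted p = 0.0343), and the call was lost in 5 of the 6 fits that left out 1 library, in the fit with the replicate number as a block (limma adjusted p = 0.0767) and after the GC and length correction (limma adjusted p = 0.0564).

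EFNA3, the ligand ephrin A3 of Eph receptors (ENSG00000143590), was higher on day 5, and its 3′UTR holds a 7-base match. Its values were 67.6, 129 and 116 on day 3 and 278, 398 and 377 on day 5, with no overlap. On the log2 scale EFNA3 rose by 1.77 (SE 0.28, 95% interval 1.10 to 2.45, limma adjusted p = 0.00247), or 3.42-fold. A readthrough transcript, EFNA4-EFNA3, overlaps the gene on the same strand, and reads of both cannot be told apart here.

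RAD52, a protein of homologous recombination (ENSG00000002016), was at 706, 731 and 703 on day 3 and at 699, 708 and 688 on day 5. The values overlapped. Its log2 fold change was -0.03 (95% interval -0.20 to 0.14, limma adjusted p = 0.727), an interval that leaves out changes as large as those of ISCU and SDHD. ENSG00000250132 overlaps RAD52 on the same strand.

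PTPN1, a protein tyrosine phosphatase that acts on the insulin receptor (ENSG00000196396), was at 1824, 2149 and 2469 on day 3 and at 3078, 3096 and 3053 on day 5. All libraries of day 5 lay above those of day 3. PTPN1 rose by 0.53 on the log2 scale (SE 0.12, 95% interval 0.23 to 0.83, limma adjusted p = 0.012), and 0.36 (limma adjusted p = 0.0272) with the GC and length correction. The call was lost with no filter on low values (limma adjusted p = 0.0537) and with a 2-fold minimum.

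**Figure D3:**
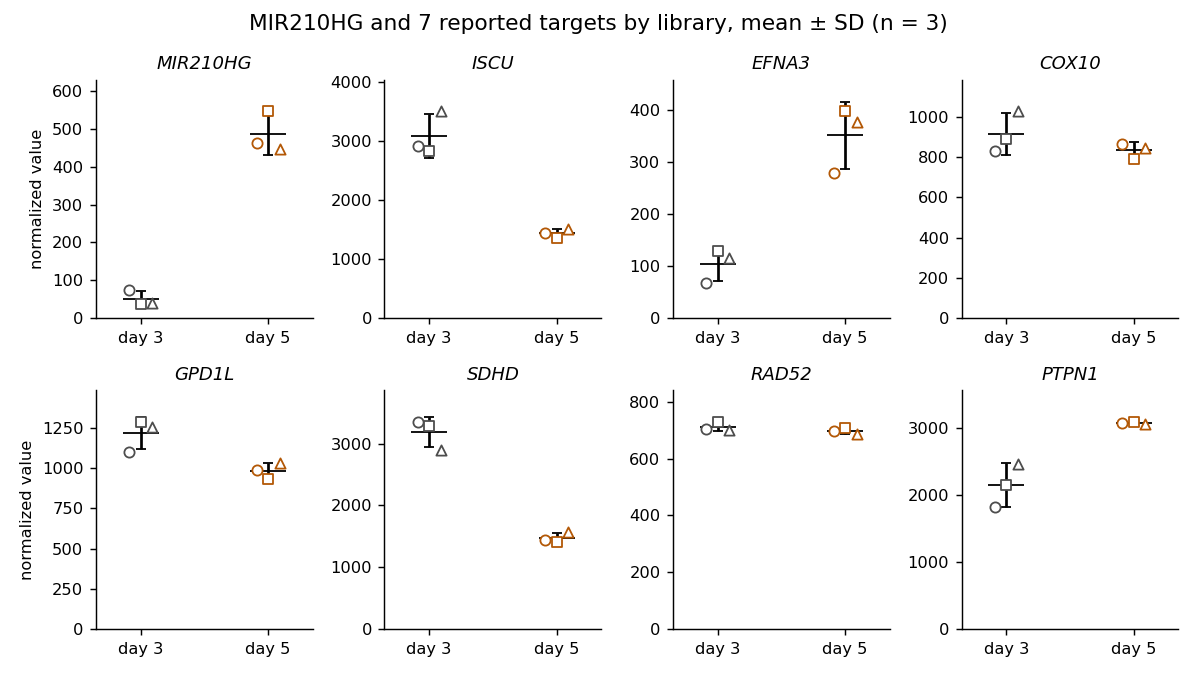
Normalized values of MIR210HG and the 7 reported targets in the 3 libraries of day 3 (grey) and the 3 of day 5 (orange), with the mean ± SD and axes that start at 0. Circles, squares and triangles are replicates 1, 2 and 3. MIR210HG, EFNA3 and PTPN1 are higher on day 5, ISCU, SDHD and GPD1L lower, and COX10 and RAD52 overlap.

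**Figure D4:**
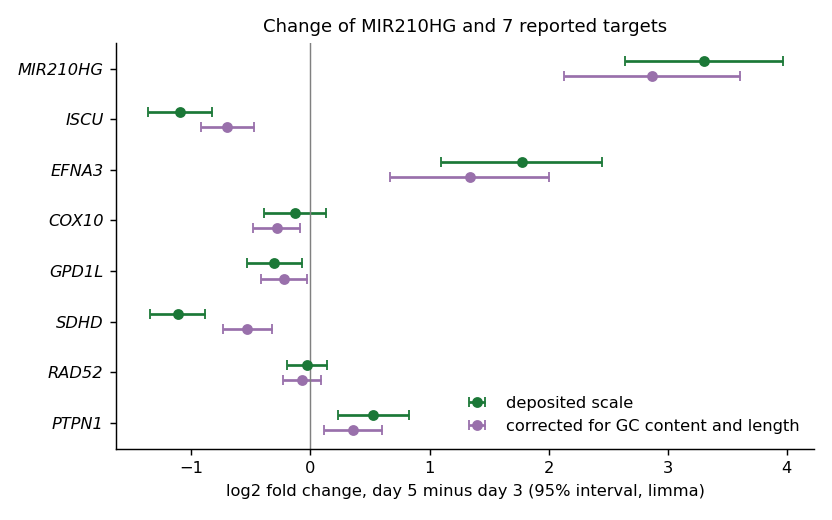
Log2 fold change of each gene on day 5 against day 3 with its 95% interval from limma, on the deposited scale (green) and after correction for GC content and length (purple). The correction moves SDHD from -1.11 to -0.53 and ISCU from -1.10 to -0.70, and MIR210HG from 3.31 to 2.87.

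On the RPKM scale, which sets levels per length, SDHD was the highest of the 8 on day 3 at 31.9 ± 4.58, followed by ISCU at 19.4 ± 1.05 and PTPN1 at 14.7 ± 1.27 (SD, n = 3). On day 5 PTPN1 was the highest at 22.2 ± 0.449, followed by SDHD at 15.3 ± 0.701 and ISCU at 9.49 ± 0.402. GPD1L at 6.10 ± 0.248, MIR210HG at 6.09 ± 0.736 and EFNA3 at 5.26 ± 0.946 did not differ beyond their spread on day 5, whereas on day 3 MIR210HG and EFNA3 had the lowest levels of the 8.

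Over all tested genes with an annotated 3′UTR, 420 of 13094 (3.21%) held the 7-base match to miR-210-3p. Their median log2 fold change on day 5 was 0.32, against 0.12 over all 13094, and 64.8% passed the test against 65.7%. Of the 420 genes, 197 rose and 75 fell, and of all 13094, 4934 rose and 3670 fell. The 3′UTRs of the 420 were longer, with a median of 3033 bases against 1287. After the GC and length correction the medians were -0.01 and -0.04. For the seed of miR-210-5p, 1959 genes held the match and their median was 0.50 before and 0.04 after the correction.

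Of 14 tested genes from a further list of reported miR-210 targets, 7 rose and 5 fell, with a median log2 fold change of 0.31 against 0.01 over all genes. Among all genes tested, 29.3% rose and 27.6% fell. With the GC and length correction 6 rose and 5 fell, with a median of 0.06 against -0.01. That correction gave 4649 higher and 4991 lower among all 19288 genes it covered. NPTX1, also on the list, was under the filter. MNT, a MYC antagonist, rose by 1.70 (limma adjusted p = 0.000156) and SERTAD2, a transcriptional coregulator, by 1.66 (limma adjusted p = 0.000168). NDUFA4, a subunit of cytochrome c oxidase, fell by 1.41 (limma adjusted p = 0.000507) and BDNF, a neurotrophin, by 1.09 (limma adjusted p = 0.000235). These reported targets, like the 7 above, went both ways.

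Genes listed for the HIF pathway moved mostly upward, and whether HIF acted on miR-210 here was not tested. Of 20 genes tested, 17 rose and 1 fell, where 29.3% of all genes tested rose and 27.6% fell. The median log2 fold change was 1.98. With the GC and length correction 16 rose and 2 fell, with a median of 1.85. CA9, a carbonic anhydrase, went from values of 0.878, 0.618 and 4.25 on day 3, which are 1 to 3 recovered reads a library, to 204, 178 and 214 on day 5. NDRG1, a stress response gene, went from 1211, 1208 and 1429 to 29430, 34149 and 35438, a rise of 4.68 on the log2 scale (limma adjusted p = 5.6e-05).

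EGLN3, a prolyl hydroxylase that marks HIF subunits for degradation, rose by 2.79 (limma adjusted p = 9.04e-05), and EPAS1, which encodes HIF-2 alpha, by 2.00 (limma adjusted p = 0.000235). HIF1A mRNA was the member that fell, by 0.63 (limma adjusted p = 0.0021). The list was written with earlier results of these data known, so its direction is not independent evidence.

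Genes that work beside ISCU were mostly lower. Of 11 tested genes of iron-sulfur cluster assembly, 1 rose and 8 fell, where 29.3% of all genes rose and 27.6% fell. Their median was -0.69. BOLA3 and NFU1, factors that deliver clusters to target proteins, fell by 1.39 (limma adjusted p = 0.00067) and 1.04 (limma adjusted p = 0.000806), and IBA57, a late assembly factor, rose by 0.83 (limma adjusted p = 0.00132). With the GC and length correction 0 rose and 8 fell, with a median of -0.41.

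Beside SDHD, the other genes of complex II gave 1 rise and 4 falls among 7, with a median of -0.57. After the GC and length correction they gave 1 rise and 5 falls, with a median of -0.32. Before the correction, 29.3% of all genes tested rose and 27.6% fell. The assembly factor SDHAF3 fell by 1.26 (limma adjusted p = 0.000446) and the iron-sulfur subunit SDHB by 1.07 (limma adjusted p = 0.000942), while the catalytic subunit SDHA rose by 0.74 (limma adjusted p = 0.00176). Beside COX10, 6 of 9 genes of haem A and cytochrome c oxidase assembly fell and 0 rose, with a median of -0.44. COX17, a copper chaperone, fell by 1.25 (limma adjusted p = 0.000337), and COX14, an assembly factor, by 1.22 (limma adjusted p = 0.00132).

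Of the kin of the other targets, GPD1 and GPD2 fell by 0.70 and 0.30 (limma adjusted p = 0.00289 and 0.0182). Among 4 further A-type ephrins 2 rose, EFNA2 by 1.30 (limma adjusted p = 0.000422) and EFNA4 by 0.31 (limma adjusted p = 0.0477). With the GC and length correction 1 rose. For these short lists too, 29.3% of all genes tested rose and 27.6% fell before that correction. Of 5 partners of RAD52, 3 fell, with a median of -0.78 and of -0.52 after that correction, among them RPA3, a subunit of the single-strand binding protein RPA, by 1.48 (limma adjusted p = 0.000179) and BRCA2 by 0.84 (limma adjusted p = 0.000721). PTPN2, the close relative of PTPN1, fell by 0.67 (limma adjusted p = 0.00122).

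In the machinery that makes and loads miRNAs, 5 of 10 genes rose and 2 fell, where 29.3% of all genes rose and 27.6% fell. The median was 0.19. AGO2 and AGO1 rose by 0.93 (limma adjusted p = 0.000655) and 0.87 (limma adjusted p = 0.000447), and DROSHA, the nuclear nuclease, by 0.30 (limma adjusted p = 0.0117). DICER1, the cytoplasmic nuclease, fell by 0.32 (limma adjusted p = 0.00928) and PRKRA, a partner of DICER1, by 0.61 (limma adjusted p = 0.00114). With the GC and length correction 3 rose and 3 fell, with a median of -0.05.

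**Figure D5:**
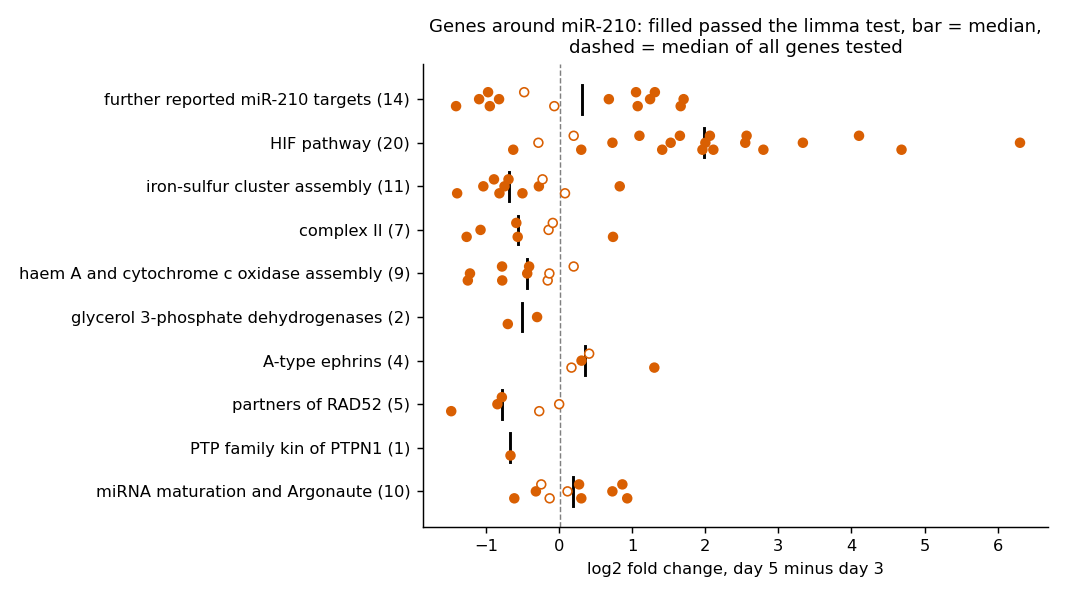
Log2 fold change on day 5 against day 3 for each tested gene of the lists around miR-210, with the number tested in brackets. Filled points passed the limma test, black bars are list medians and the dashed line is the median of all genes tested, 0.01. The HIF pathway lies mostly to the right with a median of 1.98, and the lists beside ISCU, SDHD and COX10 lie mostly to the left.

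The whole transcriptome libraries held 27470978 to 56689369 recovered reads. The deposited small RNA values do not give the reads counted in each library, so no counting interval was set on them. In the whole transcriptome libraries, epithelial markers were present on both days, with EPCAM at 6932 to 7403 on day 3 and 7048 to 7389 on day 5, but VIL1 was at 1.08 to 5.18. The summed epithelial markers went from between 37110 and 55188 to between 100343 and 101432, leukocyte markers summed to at most 5.42, and fibroblast markers, nearly all COL1A1, went from at most 594 to at most 1181. Endothelial markers, nearly all VWF, summed to at most 39.7 over 2 of 3, since PECAM1 was not among the genes listed. Any part of these in the results was not tested.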

How the data were processed

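Small RNA and whole transcriptome libraries of wild-type HCT116 cells were grouped by the day in their labels. The authors deposited normalized log2 values of mature miRNAs (the methods give TMM and edgeR, and the log transform is not given in the sources used here). For genes the authors deposited a normalized signal per library, made by strand-specific mapping to hg38 with Ensembl annotation in CLC Genomics Workbench and TMM scaling. FastQC 0.11.8 and MultiQC 1.7 are named in the submitters' processing notes. Deposited columns with the authors' fold changes and p-values were not used. All 3 of the day 3 columns were the same in both miRNA tables.

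Signals were whole multiples of 1 read (100% of values, within 0.05), so reads were recovered. limma 3.58.1 in R 4.3.3 was fitted to the miRNA log2 values and to log2(signal + 1), for features at 10 or more in at least 3 libraries, with two-sided p-values adjusted by Benjamini-Hochberg over all features tested (threshold 0.05). Fold changes of genes are on the log2(value + 1) scale, which understates those of low genes. The fits were tested on simulated data, in which limma missed most of the genes changed 2-fold and few of the miRNAs. P-values cover the spread between these libraries. Levels per length used the union of GENCODE 44 exons. Sequences came from RefSeq and GENCODE 44.

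Alternatives were library totals, median centring, no filter, a pseudocount of 0.1, a replicate block, other sets of libraries, a 2-fold minimum, edgeR 4.0.16, DESeq2 1.42.0 and leaving out each library. A mean-variance trend and a lowess correction for GC content and length of the canonical transcript (19288 genes) were chosen after seeing the data. Members and lists were chosen with earlier results of these data known. Within a list, genes named are the 2 largest rises and falls that passed with no overlap between days, and HIF1A, EPAS1, EGLN3, DROSHA, DICER1 and AGO2. Of the neighbours of MIR210HG, those named were chosen after their values were seen.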

Additional observations from a re-analysis of the deposited data

Results flagged for a closer look

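The change of miR-210-5p from day 5 to day 7 was smaller than its change from day 3 to day 5 by 2.12 on the log2 scale (-2.12, limma adjusted p = 5.85e-05), which is a test of the difference itself over 9 libraries. It rose by 2.58 between days 3 and 5 and by 0.46 between days 5 and 7. Confluency went from 50% to 250% in the earlier step and from 250% to 400% in the later.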

How the results depend on the processing

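The rises of both arms on days 5 and 7 against day 3, and of miR-210-3p from day 5 to day 7, passed under every alternative run. Leaving out 1 library gave log2 fold changes of 1.50 to 1.87 (3p) and 2.53 to 2.65 (5p) on day 5, 2.71 to 3.08 and 3.02 to 3.05 on day 7, and 1.17 to 1.28 and 0.39 to 0.50 from day 5 to day 7. The later minus the earlier change ranged from -0.66 to -0.29 (3p) and -2.26 to -2.03 (5p). With library totals, miR-210-5p from day 5 to day 7 was -0.033, and the later minus the earlier change of miR-210-3p passed at -1.02, as it did at -0.77 with median centring. On day 7 against day 3 library totals took the median over all tested miRNAs from 0.30 to -0.20 (log2), with 93 higher and 226 lower in place of 253 and 47. From day 5 to day 7 they gave 60 and 246 in place of 223 and 28, where median centring gave 148 and 56. The arm ratio on day 7 minus day 3 ranged from -0.31 to 0.03 without 1 library, at 0.02 without day 3 replicate 1 and 0.0335 without day 3 replicate 2. The change from day 3 to day 5 was -1.06 without day 3 replicate 3.

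Of the 8 genes, 5 or 6 passed when 1 library was left out, 4 with no filter or a 2-fold minimum, and 6 with edgeR or DESeq2. RAD52 was at 0.0344 with library totals. PTPN1 lost its call with no filter (limma adjusted p = 0.0537). Among all 20129 genes tested 11450 passed, and 3589 with a 2-fold minimum. With no filter 9235 of 38055 passed, with edgeR on the recovered reads 12270 of 19921, and with DESeq2 11110 of 25512. Without 1 library 9780 to 11300 genes passed. With no filter or a 2-fold minimum the share of the 8 genes was above that of all genes, which was not tested. Among miRNAs on day 5, 80 passed, 135 with library totals, 124 with median centring, 50 with no filter and 36 to 118 without 1 library. From day 5 to day 7, 251 passed and 164 with no filter. For the later minus the earlier change 115 passed, 227 with library totals, 41 with no filter and 40 to 236 without 1 library.

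Correlations of same-numbered deviations ran from -0.08 to 0.12, so no pairing by replicate number was seen. The labels give a replicate number only, so pairing is not known. A replicate block gave 71, 302 and 254 miRNA calls (day 5, day 7 and day 7 against day 5) and 10533 gene calls, and 5 of the 8 genes, without GPD1L. It changed no other call.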
